A study of Homo sapiens with 8 samples.

Results

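The genes described here run the last steps of cell division: ECT2, RACGAP1, KIF23 and PRC1 at the central spindle and cleavage furrow, PLK1, CCNB1 and CDC20 in the control of mitotic entry and exit, and TOP2A and MKI67 on the chromosomes themselves. They are 9 of 10770 protein-coding gene names that stood in at least 1 of the 2 H3K9ac peak lists. H3K9ac peaks were taken by their deposited gene name, which is that of the nearest transcription start site (TSS), and H3K27ac peaks were those centred within 2 kb of one of these H3K9ac peaks. The genes were chosen by measured values, with their presence in the lists already known: ECT2, TOP2A, PLK1 and MKI67 for H3K27ac in 1 condition only, and CDC20 and CCNB1 for H3K9ac in the stromal list only. Presence or absence in a list is therefore given as a description.

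Histone H3 acetylated at lysine 9 or lysine 27 marks active promoters, and H3K27ac also active enhancers. Chromatin came from MIA PaCa-2, an established pancreatic cancer cell line, grown as spheroids in a crosslinked hyaluronan gel. All spheroids shared the line, the gel base and low-serum medium. Astromal gels had neither of 2 additions: the collagen-derived gel component Gelin-S, and medium conditioned by immortalized myofibroblasts that had grown out of resected human pancreatic tumours. Stromal gels had both, so the gel component and the medium cannot be told apart. Per the labels, tumour cells alone were mixed into the gels, and each mark in each condition was 1 library. The question of the design is how these stromal cues change the 2 marks. With 1 library per group no p-value can be given, and every interval below is a 95% interval for counting error only.

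Progression through mitosis depends on a burst of gene expression late in the cell cycle. Cyclin B1 activates CDK1 to start mitosis, PLK1 phosphorylates spindle and centrosome proteins, and CDC20 activates the ubiquitin ligase that ends it. Centralspindlin, made of KIF23 and RACGAP1, then gathers on microtubules bundled by PRC1 and recruits ECT2, which activates RhoA to constrict the furrow. The promoters of many such genes share a cell cycle element known as the CHR and upstream CCAAT boxes bound by NF-Y, and the repressive DREAM complex and its activating MYB and FOXM1 counterparts act through the former.

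Promoter sequences were found in the RefSeq table (build GRCh38.p14) for 8 of the 9 genes, RACGAP1 being the exception. In windows from 250 bases before to 50 after the start, 7 of the 8 held the CHR core TTTGAA on either strand, against 18.2% of 27305 genes in the table. All 8 held CCAAT on either strand, against 39.7%. Both motifs stood in 7 of 8, against 8.37%, and 5 of 8 held CCAAT at least 2 times, against 12.9%. In MKI67 a TTTGAA and a reversed CCAAT overlapped by 1 base. Of the wider set of mitotic genes described below, 64 of 139 (46.0%) held TTTGAA and 88 (63.3%) CCAAT. A gene with several starts in the RefSeq table was counted by its highest number of matches in any window. A match of letters is a description of the sequence and shows no binding.

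The 200 bases before the start are printed for 6 genes that differ in their acetylation: ECT2 and TOP2A, with H3K9ac in both lists and H3K27ac in opposite ones, PLK1 and KIF23, with stromal H3K9ac and astromal H3K27ac, and PRC1 and CCNB1, with H3K27ac in both lists. The windows in GRCh38.p14 are chr3:172750526-172750725 (+ strand), chr17:40417897-40418096 (- strand), chr16:23678689-23678888 (+ strand), chr15:69414149-69414348 (+ strand), chr15:90994536-90994735 (- strand) and chr5:69166950-69167149 (+ strand). ECT2 has another start in the RefSeq table, preceded by chr3:172750802-172751001, which is not printed. The full window of that start held TTTGAA at -242 and -182 and no CCAAT. Capitals mark TTTGAA and CCAAT or their reverse complements, 5′ to 3′ along the gene, and the last 2 capitals of ECT2 begin a CCAAT that crosses the start.
ECT2: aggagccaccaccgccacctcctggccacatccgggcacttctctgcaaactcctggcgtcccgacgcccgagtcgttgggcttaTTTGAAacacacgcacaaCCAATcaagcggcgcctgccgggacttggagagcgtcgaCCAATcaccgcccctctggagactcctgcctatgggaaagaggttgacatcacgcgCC
TOP2A: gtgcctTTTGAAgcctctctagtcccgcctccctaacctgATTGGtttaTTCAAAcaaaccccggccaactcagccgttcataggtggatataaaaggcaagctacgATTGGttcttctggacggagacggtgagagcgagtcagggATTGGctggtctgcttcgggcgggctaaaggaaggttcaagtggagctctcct
PLK1: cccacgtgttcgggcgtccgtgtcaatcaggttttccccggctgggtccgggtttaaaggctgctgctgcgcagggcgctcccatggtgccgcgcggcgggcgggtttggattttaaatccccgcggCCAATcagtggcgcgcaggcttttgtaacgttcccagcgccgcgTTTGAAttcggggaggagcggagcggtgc
KIF23: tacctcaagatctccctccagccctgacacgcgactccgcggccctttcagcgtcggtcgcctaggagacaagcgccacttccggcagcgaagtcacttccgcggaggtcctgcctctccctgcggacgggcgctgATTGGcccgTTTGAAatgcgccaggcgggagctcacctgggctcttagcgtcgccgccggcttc
PRC1: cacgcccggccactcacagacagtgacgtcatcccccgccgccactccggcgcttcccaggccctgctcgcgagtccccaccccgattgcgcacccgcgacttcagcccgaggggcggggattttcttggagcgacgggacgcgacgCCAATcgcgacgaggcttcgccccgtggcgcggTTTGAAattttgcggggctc
CCNB1: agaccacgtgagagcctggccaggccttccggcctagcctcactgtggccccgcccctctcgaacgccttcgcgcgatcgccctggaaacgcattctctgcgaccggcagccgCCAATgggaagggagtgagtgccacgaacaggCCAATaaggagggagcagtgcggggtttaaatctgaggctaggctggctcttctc
PLK1 and PRC1 had the plain arrangement, with CCAAT starting at -73 and -53 and TTTGAA at -29 and -20 from the start. In KIF23 the reversed CCAAT at -64 and TTTGAA at -55 were close neighbours. CCNB1 had CCAAT at -87 and -55 and no exact TTTGAA in this window. TOP2A had 4 reversed CCAAT in its full window and its TTTGAA matches farther up, at -194 and, reversed, at -151.

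Values are tags per peak scaled by the authors to 10000000 tags of the library, called normalised tags here. The libraries held 3925277 (astromal) and 7569604 (stromal) tags for H3K9ac, both estimated from the values, and 13453902 and 17190695 for H3K27ac. The H3K9ac lists held 7141 and 20326 peaks, and the H3K27ac lists 14489 and 15093. As a check of the labelled cells, 3 of 5 epithelial markers (KRT8, KRT18 and KRT19) had stromal H3K9ac and H3K27ac in both lists, and KRT18 alone had astromal H3K9ac. EPCAM and CDH1 had no H3K9ac peak in either list. VIM, carried by mesenchymal-type tumour cells, had stromal H3K9ac (92.5 normalised tags) and H3K27ac (20.4) and no astromal peak of either mark. Of 12 fibroblast markers, 4 had stromal H3K9ac (181 normalised tags in sum) and none had astromal H3K9ac. These 4 were COL1A2 (111), ACTA2 (29.0), PDGFRA (23.8) and COL1A1 (17.2), and of them COL1A2 alone had H3K27ac, with 89.2 astromal and 67.5 stromal normalised tags. The other defining fibroblast markers, among them DCN, LUM, COL3A1 and PDGFRB, and all 5 immune markers had no H3K9ac peak. H3K27ac peaks are assigned here through an H3K9ac peak, so H3K27ac was not assessed at genes without one. The part of these markers in the results below was not tested.

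H3K9ac was found at all 9 genes in the stromal list and at 2 of 9, ECT2 and TOP2A, in the astromal list. Among all protein-coding genes of the lists 51.2% were in the stromal list only, 48.1% in both and 0.706% in the astromal list only. In the stromal library the summed level over the 9 genes had a median of 38.3 normalised tags, against 42.3 over 10694 genes with a peak. It ran from 17.2 at RACGAP1 to 114.9 at ECT2. Apart from ECT2 and CDC20, each of the 9 stood above at most 60.6% of the genes in that list.

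**Figure D1:**
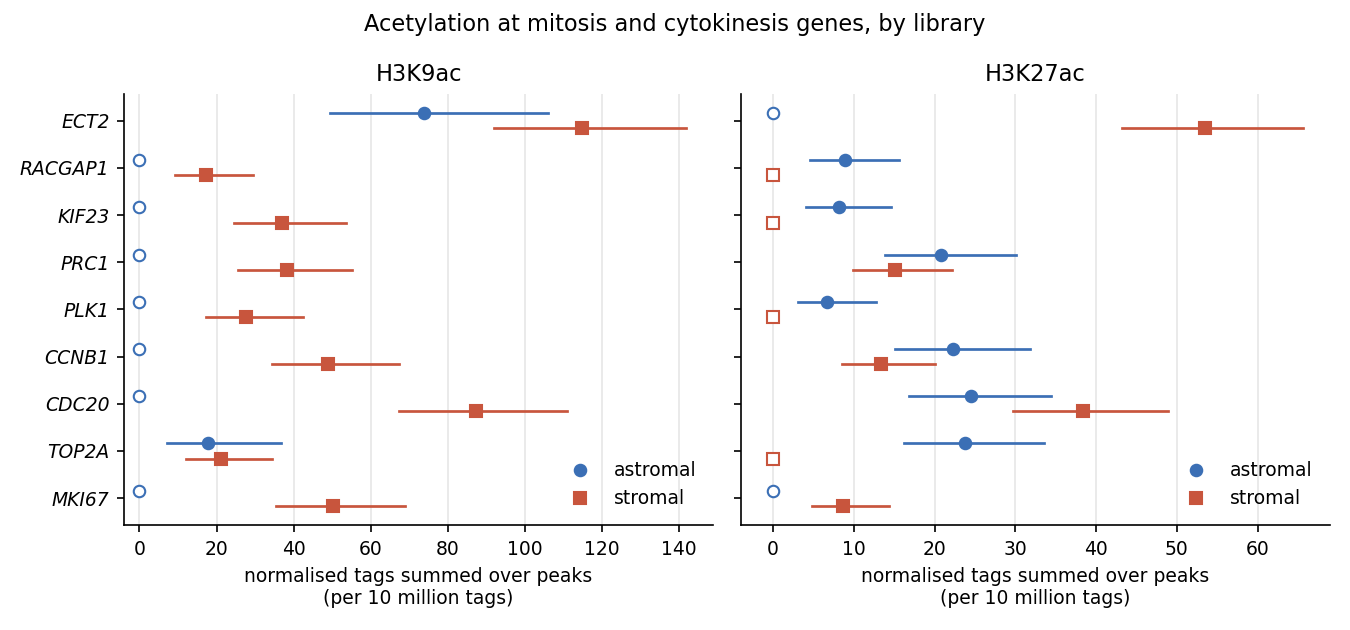
Normalised tags summed over the peaks of each gene (x axis, per 10000000 tags) in the astromal (blue circles) and stromal (red squares) library of H3K9ac (left) and H3K27ac (right). Lines are 95% Poisson intervals of the tags and open symbols at 0 mean that the list held no peak. ECT2 reached 114.9 stromal H3K9ac and 53.6 stromal H3K27ac, and 7 genes had no astromal H3K9ac peak.

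ECT2, the exchange factor that activates RhoA at the furrow, had 73.9 astromal (49.5 to 106) and 114.9 stromal (92.1 to 142) normalised tags of H3K9ac, from 29 and 87 tags. It stood above 97.8% and 96.7% of the genes in the respective lists. The stromal level was higher by 0.64 on the log2 scale (0.02 to 1.3). The median of all 5179 genes with H3K9ac in both lists was 1.00, and against it ECT2 was at -0.36 (-0.98 to 0.30), inside the 2-fold limit. By its highest peak alone ECT2 was at 0.30 (-0.54 to 1.23) after centring, so the sign depends on the summing. Both intervals include 0. The peaks on either side of the start gave different ratios. The peak upstream of the start (chr3:172468046-172468246 in the astromal list, hg19, at -329 bp from the TSS) had 35.7 and 39.6 normalised tags, a log2 ratio of 0.15 (-0.81 to 1.18). The peak in intron 1, 475 bp after the TSS (chr3:172468850-172469050), had 38.2 and 75.3, a log2 ratio of 0.98 (0.14 to 1.91). The intervals of these ratios overlap. The median over all 5411 overlapping pairs of H3K9ac peaks was 0.64, with quartiles of 0.34 and 0.93. The stromal intron peak ranked 78th by signal among the 20326 of its list.

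RACGAP1, the GTPase-activating subunit of centralspindlin, had the lowest H3K9ac, a single stromal peak of 17.2 normalised tags (9.14 to 29.4, 13 tags) in intron 1, 310 bp after its TSS (chr12:50418892-50419102, hg19). KIF23, the kinesin subunit, had 37.0 (24.6 to 53.5) in 2 stromal peaks, 603 and 1144 bp into the gene. PRC1, the microtubule bundler on which they gather, had 38.3 (25.7 to 55.0), with a peak on either side of the TSS at 315 and -372 bp. None of these 3 had an astromal H3K9ac peak, and the 3 stromal levels lay below the median of the list.

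PLK1 had 27.8 stromal normalised tags (17.2 to 42.4, 21 tags), in peaks of 11.9 at -280 bp and 15.9 at 430 bp. Its upstream peak, with 9 tags, was among the weakest of the list, with 0.059% of peaks below it. CCNB1 had 48.9 (34.4 to 67.4, 37 tags), mostly in a peak of 33.0 in intron 1 (chr5:68463075-68463285, hg19). CDC20 had the highest level after ECT2, 87.1 (67.4 to 111, 66 tags), in 3 stromal peaks. Of these, 34.3 lay at -473 bp, 19.8 in intron 1 and 33.0 at -9638 bp. The last of them is named for CDC20 by distance but lies in an exon of another transcript, NM_005373.

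TOP2A, the topoisomerase that untangles sister chromatids, had 17.8 astromal (7.17 to 36.7, 7 tags) and 21.1 stromal (12.1 to 34.3, 16 tags) normalised tags of H3K9ac. The log2 ratio was 0.25 (-1.12 to 1.77) and -0.75 (-2.12 to 0.77) against the median gene, so 7 tags leave the direction unsettled. The peaks, in intron 1, lay 353 and 608 bp after the TSS and did not overlap. MKI67, which encodes the Ki-67 protein that coats mitotic chromosomes, had 50.2 stromal normalised tags (35.5 to 68.9) in 3 peaks. They were 21.1 at 660 bp, 17.2 at -656 bp and 11.9 in intergenic sequence at -24108 bp. No astromal H3K9ac peak of any gene lay closer to MKI67 than one named for MGMT, 1317048 bp away.

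Neither of the genes with H3K9ac in both lists was past 2-fold after centring, where 5.85% of all 5179 such genes were higher and 3.61% lower. These shares rest on the centring: 303 genes were higher and 187 lower with it, and 2346 higher and 7 lower without it.

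The stromal-only H3K9ac of the other 7 genes has to be read beside the depth of the astromal library. The highest stromal peak of each held 12 (PLK1), 13 (RACGAP1), 16 (PRC1 and MKI67), 17 (KIF23), 25 (CCNB1) and 26 (CDC20) tags. At the astromal depth the same density would give 6.22 tags at PLK1 and 13.5 at CDC20. With the median log2 ratio of all genes with H3K9ac in both lists also applied (1.0, from sums over peaks), it would be 3.11 tags at PLK1 and 6.74 at CDC20. By the highest peak alone that median was 0.68, which would lower the tags less. The weakest peak of the astromal list held 5 tags and the median peak 9. Of all genes with a highest stromal peak of 9 to 15 tags, the range around PLK1, 7.57% (6.51 to 8.78) had an astromal H3K9ac peak. The share was 10.3% (9.15 to 11.7) at 10 to 16 tags (RACGAP1), 21.6% at 12 to 20 (PRC1 and MKI67) and 25.0% at 13 to 21 (KIF23). It was 53.5% (52.0 to 55.0) at 20 to 30 tags (CCNB1) and 56% (54.6 to 57.4) at 20 to 32 (CDC20). At PLK1, RACGAP1, PRC1, MKI67 and KIF23 most genes of like level were missing from the astromal list too, and at CCNB1 and CDC20 the larger share were present. No astromal H3K9ac level can be given for these 7 genes, only that no peak was called.

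**Figure D2:**
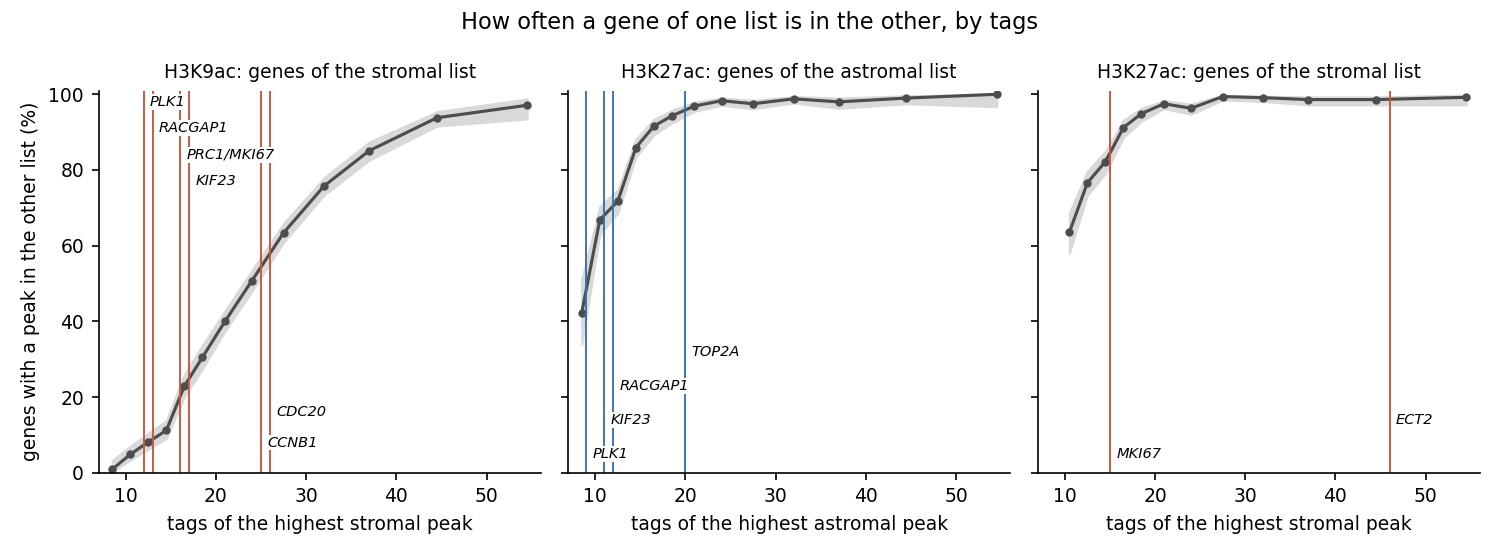
Share of protein-coding genes with a peak in the other condition's list (y axis, %) by the tags of the gene's highest peak in the list named above each panel (x axis). Points are ranges of tags, shading is the 95% Wilson interval, and vertical lines mark the genes found in that list only. ECT2 lies at 46 tags, where nearly all genes of the stromal H3K27ac list were in the astromal list. The marked genes were chosen with their presence in the lists known.

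H3K27ac split the genes differently. It was in both lists at PRC1, CCNB1 and CDC20, in the astromal list alone at RACGAP1, KIF23, PLK1 and TOP2A, and in the stromal list alone at ECT2 and MKI67. Over the 10770 protein-coding genes with an H3K9ac peak, through which H3K27ac was assigned, 65.8% had it in both lists, 7.43% in the astromal list alone, 5.2% in the stromal list alone, and 21.5% had no peak in either. The members were picked partly for such states, so their 6 genes in 1 list of 9 show nothing about mitotic genes at large.

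ECT2 stood out by level. Its stromal H3K27ac was 53.6 normalised tags (43.1 to 65.6, 92 tags), above 94.5% of genes in the list, and the astromal list held no peak. The nearest astromal H3K27ac peak was 38840 bp from its H3K9ac. The stromal peaks, of 26.8 each, lay 42 and 7 bp from the centres of the 2 H3K9ac peaks, at -381 and 482 bp from the TSS. Each held 46 tags, which would be 36.0 at the astromal depth, against a lowest peak of 8 tags in that list. Of 1208 genes with a highest stromal peak of 36 to 56 tags, 1196 (99.0%, 98.3 to 99.4) had an astromal H3K27ac peak. The deposited fold of the stromal ECT2 peaks over input was 61.6 and 62.94, while that over the surrounding 10 kb was 5.21 and 5.08, where the caller asked for 4. Astromal H3K9ac at the same 2 sites was high, with 90.1% and 92.9% of the peaks in its list weaker. In the astromal library the filter on the local region removed 11543 of 27707 putative H3K27ac peaks. Whether one of these stood at ECT2 was not tested. The astromal tags at peaks that did not pass the caller are not analysed here.

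TOP2A showed the opposite state, with 23.82 astromal normalised tags (16.3 to 33.6, 32 tags) and no stromal peak nearer than 6881 bp. Its astromal peaks were 14.9 at -426 bp and 8.92 at 660 bp. The upstream one had a fold of 6.09 over input and 8.29 over the local region, and the downstream one 29.23 and 4.18. The higher peak held 20 tags, equal to 25.6 at the stromal depth. Of genes with an astromal peak of 16 to 24 tags, 95.1% (94.3 to 95.9) were also in the stromal list. TOP2A and ECT2 were thus both at tag levels where most genes appeared in both H3K27ac lists. These genes were chosen for their absence from the other list, so the shares describe the tag levels and do not set TOP2A or ECT2 apart.

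The other 4 genes in 1 list had weak peaks. RACGAP1 had 8.92 astromal normalised tags (4.61 to 15.6), 654 bp from its H3K9ac. The strand of RACGAP1 is not given by the tables used, and the peak lay at -344 bp or 964 bp from the TSS accordingly. KIF23 had 8.18 (4.08 to 14.6), centred 6 bp from its farther H3K9ac peak. PLK1 had 6.69 (3.06 to 12.7, 9 tags), near the floor of the list, with 0.0897% of peaks weaker. MKI67 had 8.73 stromal normalised tags (4.88 to 14.4), 983 bp into the gene, with a fold of 5.02 over input and 4.7 over the local region. Of all genes with a highest peak of 9 to 15 (RACGAP1), 8 to 14 (KIF23), 7 to 11 (PLK1) and 12 to 18 tags (MKI67), 73.9%, 71.1%, 62.8% and 84.8% were in the other list.

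The 3 genes with H3K27ac in both lists were all inside the 2-fold limit. CDC20, the activator of the anaphase-promoting complex, had 24.52 astromal (16.9 to 34.4) and 38.38 stromal (29.7 to 48.8) normalised tags. Against a median gene at -0.17 it was at 0.81 (0.19 to 1.46), above 0 but inside the 2-fold limit. The sum includes an additional stromal peak, of 6.98, near the distant H3K9ac site. By its highest peak alone CDC20 was at 0.54 (-0.29 to 1.39), an interval that includes 0. At that promoter peak, at -385 bp in the astromal list, the values were 15.6 and 19.8, a log2 ratio of 0.34 (-0.48 to 1.2) before centring. CCNB1 had 22.3 astromal (15 to 31.8) and 13.38 stromal (8.48 to 20.1) normalised tags, at -0.57 (-1.42 to 0.26). PRC1 had 20.82 (13.8 to 30.1) and 15.12 (9.88 to 22.2), at -0.29 (-1.12 to 0.53). Both intervals include 0. Across all 7091 genes with H3K27ac in both lists 5.47% were past 2-fold higher and 6.22% lower (388 and 441 genes), or 219 and 636 genes without centring, and none of the 3 was among them.

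The 2 marks lay close together but not always on the same side of the TSS. The peaks lay beside the TSS rather than covering it, upstream between -656 and -197 bp or downstream from 108 bp on, apart from the distant peaks of CDC20 and MKI67. KIF23 had downstream peaks only. H3K9ac of CCNB1 and TOP2A and H3K27ac of PLK1 and MKI67 were also downstream only, and H3K27ac of CDC20 upstream only. RACGAP1 is left out of these statements because of its strand. The median distance from an H3K27ac peak to the nearest H3K9ac centre was 219 bp, with quartiles of 47 and 540 bp. The farthest of the peaks counted was that of TOP2A, at 779 bp, so no peak lay near the 2 kb limit. The closest pairs were ECT2 in the stromal lists (7 bp), KIF23 (6 bp) and PRC1 upstream (14 bp), although in KIF23 and PRC1 the H3K9ac was stromal and the H3K27ac astromal. At CCNB1 the upstream H3K27ac, at -197 bp in the astromal list and -273 bp in the stromal one, had no H3K9ac peak on that side. The same held for the upstream astromal H3K27ac of TOP2A, at -426 bp.

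**Figure D3:**
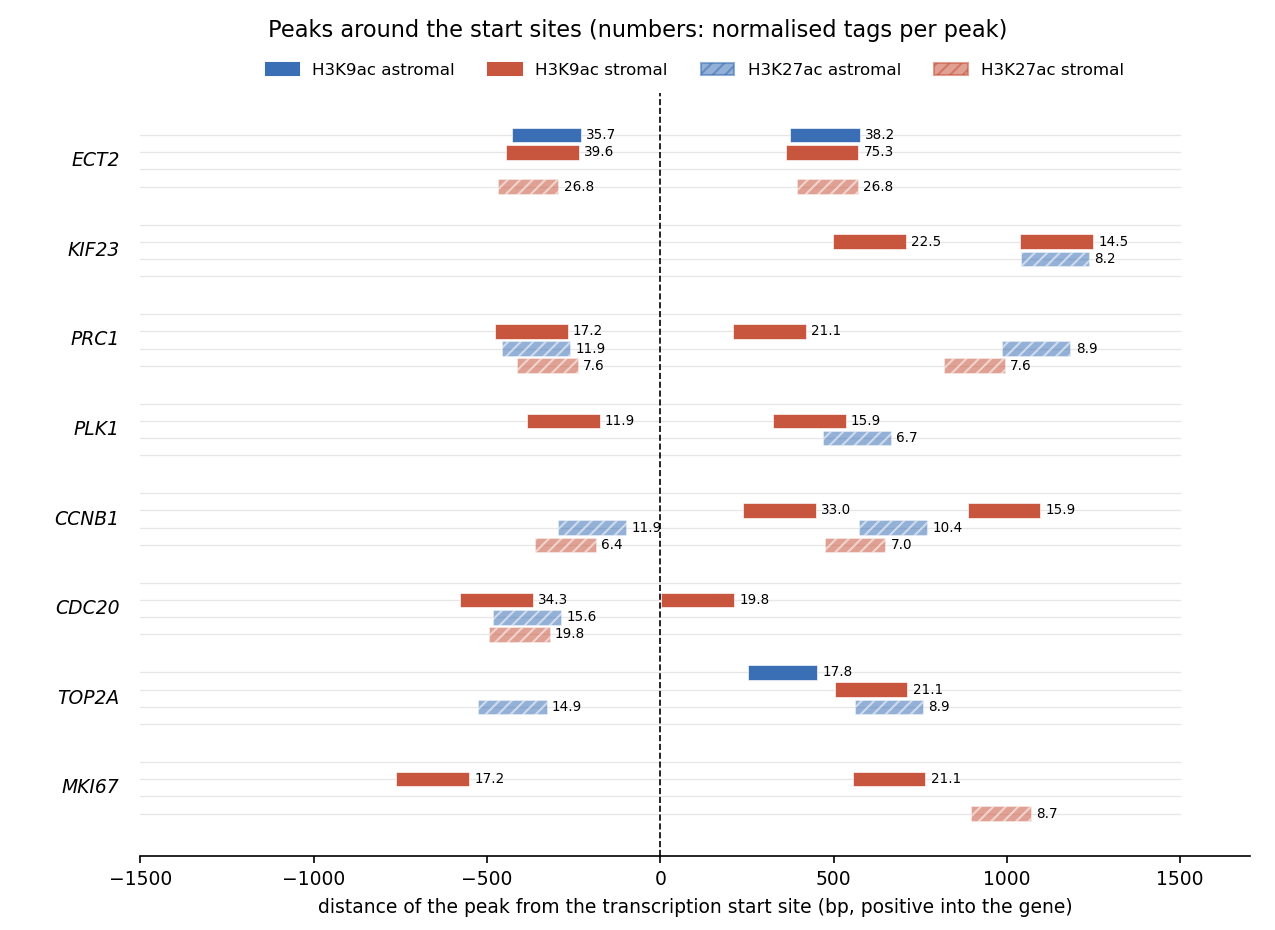
Peaks of 8 genes by distance from the TSS (x axis, bp, positive into the gene), with the 4 lists as rows within each gene: H3K9ac (solid) and H3K27ac (hatched), astromal (blue) and stromal (red). Bars are the called peak widths and numbers are normalised tags, and ECT2 alone has stromal peaks of both marks above 20 on each side. RACGAP1 and the distant peaks of CDC20 and MKI67 are not drawn.

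The marks ranked the genes differently within a library. In the stromal lists ECT2 and CDC20 led both marks, with CDC20 above 89.7% of genes for H3K9ac and 85.6% for H3K27ac. These ranks of CDC20 rest partly on its distant peaks in and near an exon of NM_005373: within 1 kb of its own TSS it had 54.1 of its 87.1 stromal normalised tags of H3K9ac and 19.8 of 38.38 of H3K27ac. MKI67 stood above 60.6% of genes for H3K9ac, with 38.3 of its 50.2 normalised tags within 1 kb of the TSS, and 13.7% for H3K27ac, and PRC1 above 42.3% and 37.0%. RACGAP1, KIF23, PLK1 and TOP2A had stromal H3K9ac and no stromal H3K27ac. In the astromal lists ECT2 was above 97.8% of genes for H3K9ac with no H3K27ac peak, and TOP2A above 4.87% for H3K9ac and 56.3% for H3K27ac. The remaining 6 genes with astromal H3K27ac had no astromal H3K9ac peak, including CDC20 and CCNB1, which were above 58.0% and 51.8% of genes for H3K27ac. This rank of CDC20 also rests partly on a distant peak, with 15.6 of its 24.52 normalised tags within 1 kb of the TSS. Levels of the 2 antibodies have no common scale and were not compared with each other.

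Taking the 4 lists as a pattern, ECT2 shared its own (H3K9ac in both, H3K27ac stromal only) with 1.67% of the 10770 genes, and TOP2A its own (H3K27ac astromal only) with 2.66%. RACGAP1, KIF23 and PLK1 had stromal-only H3K9ac with astromal-only H3K27ac, like 4.74% of genes. In these 3 genes the marks were called in opposite conditions. The state of MKI67, stromal only for both marks, was that of 3.49% of genes. PRC1, CCNB1 and CDC20 had stromal-only H3K9ac and H3K27ac in both, as did 24.4%.

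Likeness was measured as the Euclidean distance of log2(normalised tags + 1) over the 4 libraries, among genes present in the same lists. Nearest to ECT2, of 179 genes, were TXNRD1 (distance 0.425) and CITED2 (1.17). TXNRD1 had 78.9 astromal and 109.7 stromal normalised tags of H3K9ac and 40.1 of stromal H3K27ac. Nearest to TOP2A, of 285, were KHSRP (0.206) and CLDN4 (0.341). MKI67 was nearest to MKRN1 and RAD54L, RACGAP1 to GSKIP and PAPLN, KIF23 to ZNF783 and ZNF550, and PLK1 to BTBD3 and CLPB. At these 4 genes the nearest distance was at most 0.00502.

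Other mitotic genes were taken from 7 lists by role, 164 genes in all, of which 142 had an H3K9ac row. H3K9ac was in the stromal list only at 67 of them (47.2%), in both at 74 (52.1%) and in the astromal list only at 1, CENPP (30.6 normalised tags). H3K27ac was in both lists at 115 (81.0%), in the astromal list alone at 9 (6.34%), in the stromal list alone at 6 (4.23%) and absent from both at 12 (8.45%). Among all protein-coding genes with an H3K9ac peak these shares were 65.8%, 7.43%, 5.2% and 21.5%. The stromal-only H3K9ac share was thus close to the 51.2% of all genes with an H3K9ac peak. Of the 74 with H3K9ac in both lists, 3 were past the 2-fold limit higher and 6 lower, where 5.85% and 3.61% of all such genes were. Without centring 33 were higher and 0 lower, so none of the 6 lower calls remained. Of the 115 with H3K27ac in both lists, 9 were higher and 10 lower, where 5.47% and 6.22% of all such genes were, and 5 and 14 without centring. The median centred log2 ratio was -0.17 and -0.02. These calls rest on sums over peaks: by the highest peak alone, NCAPD3 for H3K27ac was the 1 gene of these still past the limit. Calls over all genes fell as well by the highest peak. For H3K9ac 10 of 5179 were then higher and 35 lower, and for H3K27ac 35 of 7091 higher and 62 lower.

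**Figure D4:**
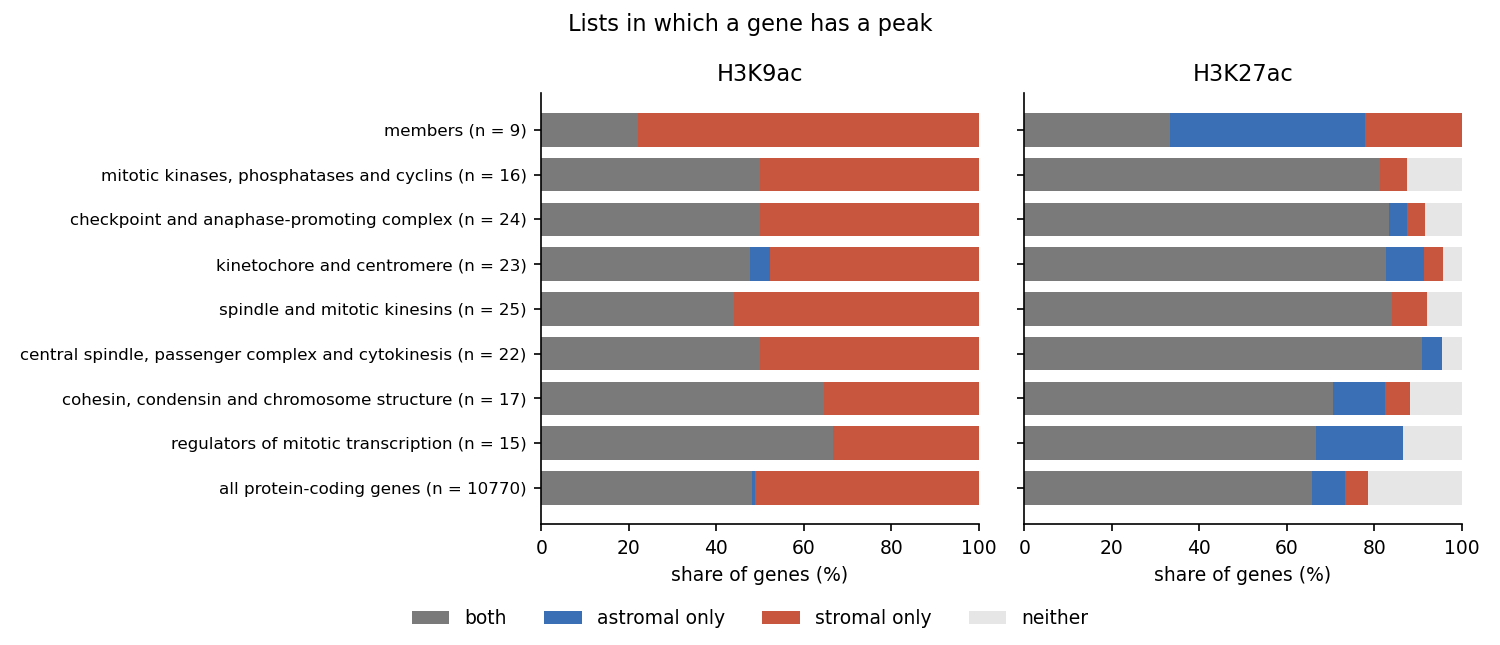
Share of genes (x axis, %) with a peak in both lists, the astromal list only, the stromal list only or neither, for H3K9ac (left) and H3K27ac (right), in the 9 members, 7 role lists and the 10770 protein-coding genes with an H3K9ac peak. The members, chosen partly for these states, have 4 of 9 genes with astromal-only H3K27ac, and all 142 genes of the role lists together have 6.34%.

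Among kinases, phosphatases and cyclins, 8 of 16 genes were stromal only for H3K9ac, against 51.2% of all genes with an H3K9ac peak. The highest were ENSA (68.7), which restrains a mitotic phosphatase when phosphorylated, and PKMYT1 (46.2), an inhibitory CDK1 kinase. CDC25C, the phosphatase that activates CDK1, had 48.4 astromal and 44.9 stromal normalised tags of H3K9ac, -1.11 after centring but -0.30 at its highest peak. BORA had weak stromal-only H3K27ac (6.4). PLK4, the kinase of centriole duplication, had 27.46 and 8.73 normalised tags of H3K27ac, -1.49 (-2.46 to -0.59), but -0.84 at its highest peak. In the checkpoint and anaphase-promoting complex list 12 of 24 were stromal only for H3K9ac, led by the checkpoint gene MAD1L1 (84.6) and FZR1 (74.0), the second activator of the complex. FBXO5, an inhibitor of the complex, had 15.3 and 96.4 normalised tags of H3K9ac, 1.66 (0.47 to 3.15), and its subunit gene ANAPC7 58.6 and 47.6, -1.30 (-2.10 to -0.48). At the highest peak FBXO5 was at 0.92 and ANAPC7 at -0.16. For H3K27ac, ANAPC2 (9.66) was astromal only and ANAPC4 (6.98) stromal only. ZWILCH had 42.4 and 16.9 normalised tags of H3K27ac, -1.16, but -0.21 at its highest peak.

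Of 23 kinetochore genes 11 were stromal only for H3K9ac, against 51.2% of all genes with an H3K9ac peak. CASC5 (74.0), the scaffold KNL1, and SPC24 (71.4) of the NDC80 complex were at the top. ZWINT (16.36) and CENPQ (7.43) had astromal-only and CENPM (9.89) stromal-only H3K27ac. CENPF had 14.9 and 32.57 normalised tags of H3K27ac and SKA2 19.3 and 41.9, 1.3 and 1.28 after centring, though -0.39 and -0.22 at the highest peak. The kinesin gene CENPE had 24.5 and 6.98, -1.65 (-2.73 to -0.66), but -0.74 at its highest peak. Spindle genes had stromal-only H3K9ac at 14 of 25, led by KIF11 (96.5), the kinesin that separates the poles, and PCNT (91.2) of the centrosome. KIF2C had 22.9 and 118.9, 1.37 for H3K9ac but -0.04 at its highest peak. CKAP2 had 38.2 and 22.5, -1.77 for H3K9ac but -0.54 at its highest peak. For H3K27ac, KIF2A (8.73) and CKAP5 (7.56) were stromal only. KIFC1 (1.35) and HMMR (1.29, and -0.08 at its highest peak) were past the limit higher, and KIF20B (-1.40) and TPX2, the activator of aurora A (-1.39, 51.3 and 17.5 normalised tags), lower. At the highest peak KIFC1 was at 0.84, KIF20B at -0.50 and TPX2 at -0.81.

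The genes nearest in role to the members, those of the central spindle, the chromosomal passenger complex and cytokinesis, had stromal-only H3K9ac at 11 of 22 and H3K27ac in both lists at 20 of 22. Among all genes with an H3K9ac peak these shares were 51.2% and 65.8%. INCENP (89.8), the scaffold of the passenger complex, and the myosin gene MYH10 (78.0) led the genes with stromal-only H3K9ac. SEPT7, of the septin ring, had 51.0 astromal and 27.7 stromal normalised tags of H3K9ac, -1.88 (-2.83 to -0.92), and the abscission gene TSG101 58.6 and 47.6, -1.30. At the highest peak SEPT7 was at -0.55 (-1.7 to 0.7) and TSG101 at -0.36. CIT, the citron kinase gene, had astromal-only H3K27ac (10.4). CDCA8 of the passenger complex had 11.1 and 20.91 normalised tags of H3K27ac, 1.08 (0.17 to 2.05), but 0.26 at its highest peak. No gene of this list shared the stromal-only H3K27ac of ECT2, which 5.2% of all genes with an H3K9ac peak had. ECT2 was chosen for this state, so its absence from a list of 22 genes does not set ECT2 apart. Whether ECT2 differs from its list beyond the spread between cultures could not be tested with 1 library per group.

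Cohesin and condensin genes were stromal only for H3K9ac at 6 of 17, against 51.2% of all genes with an H3K9ac peak. SGOL2 (41.0) and SMC2 (35.7) were in the lead. NCAPG2 (9.66) and WAPAL (8.18) had astromal-only and SGOL1 (7.56) stromal-only H3K27ac. SGOL2 and NCAPD3 were at -1.07 and -1.03 for H3K27ac, and at -0.27 and -1.01 by the highest peak. Of 15 regulators of mitotic transcription, 5 had stromal-only H3K9ac, among them LIN54 (50.2), the CHR-binding subunit of the DREAM complex, and FOXM1 (35.7). MYBL2 had 28.0 and 114.9 normalised tags of H3K9ac, 1.04 (0.13 to 2.09), but -0.33 at its highest peak. The list had astromal-only H3K27ac at 3 of 15 genes, where 7.43% of all genes with an H3K9ac peak did. Among the 3 were LIN9 (22.28) and LIN52 (19.28), subunits that the DREAM and MYB complexes share. LIN37 had 23 and 8.73, -1.23, and NFYC, a subunit of the CCAAT-binding factor, 55.0 and 22.71, -1.11 (-1.71 to -0.53). At the highest peak LIN37 was at -0.34 and NFYC at -0.44.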

How the data were processed

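H3K9ac and H3K27ac ChIP peaks of MIA PaCa-2 spheroids were analysed, with 1 library per mark and condition. The 4 inputs are not analysed here. The submitters' processing notes name hg19, CASAVA 1.8.2, HOMER and Bowtie. Per the file headers, H3K27ac peaks were called by HOMER against input at an FDR of 0.001, with 4-fold over input and over the local 10 kb. How H3K9ac peaks were called is not given in the sources used here. The deposited signal is tags per peak normalised to 10000000 tags by the authors. The deposited fold ratio over input or the local region was used within a list only, and the deposited focus fraction and findPeaks score were not used.

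All values lay within 0.1 tag of whole tags, which gave tags per peak and the H3K9ac depths. Levels were summed per gene name. Log2 ratios carry exact Clopper-Pearson intervals from tags (conditional on their sum), levels Poisson and shares Wilson intervals, at 95%. Ratios were centred on the median protein-coding gene, and past the limit means at least 2-fold with the interval leaving out 0. Functions were tested on simulated data (Python 3.11.15, scipy 1.17.1). Members, lists and rules were chosen with earlier results of these data known. Genes named from the role lists are up to 2 per list, mark and direction with the highest level in 1 list or the largest ratio past the limit, and, for members with H3K27ac in 1 list, the 2 most alike genes.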

Additional observations from a re-analysis of the deposited data

How the results depend on the processing

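With 1 library per group no library could be left out. No paired analysis was possible because each group holds 1 library. By the highest peak ECT2 H3K9ac was at 0.30 (-0.54 to 1.23), and without centring at 0.64 (0.02 to 1.3). With stricter peaks (at least 20 normalised tags for H3K9ac, 6-fold over input for H3K27ac), H3K9ac was in both lists at 1 member, ECT2, and in neither at 2, RACGAP1 and PLK1, and H3K27ac was stromal only at 1, ECT2, and in neither at 1, MKI67. The TOP2A H3K9ac and the PRC1, CCNB1 and CDC20 H3K27ac ratios stayed inside the intervals given above under all settings that could be computed. In the role lists the highest peak left 0 higher and 0 lower calls for H3K9ac, and 0 and 1 for H3K27ac. Over all genes in both lists it left 10 and 35 of 5179, and 35 and 62 of 7091. At that peak KIF2C was at -0.04, MYBL2 -0.33, CENPF -0.39, SKA2 -0.22 and HMMR -0.08. Of the lower H3K9ac calls, SEPT7 was at -0.55, CKAP2 -0.54, TSG101 -0.36, CDC25C -0.30 and ANAPC7 -0.16. Without centring the calls were 33 higher and 0 lower for H3K9ac, and 5 higher and 14 lower for H3K27ac. Over all genes they were then 2346 and 7 of 5179, and 219 and 636 of 7091. Peaks within 1 kb of the TSS gave 1 higher and 5 lower for H3K9ac, and 5 and 7 for H3K27ac. All genes gave 202 and 148 of 4735, and 338 and 383 of 6274. H3K27ac within 1 kb of H3K9ac gave 5 higher and 8 lower, and over all genes 384 and 421 of 6927. The median peak of the astromal H3K9ac list held 9 tags, which limits the precision of its values. The causes of these changes were not tested.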
